A study of Rattus norvegicus with 12 samples.

Results

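The circadian clock genes of the rat islet were followed across offspring of lean dams and of dams with gestational diabetes mellitus (GDM). They are 10 entries, found by their gene symbols among the 17407 entries of the expression table: Arntl, Clock, Per1, Per2, Per3, Cry1, Nr1d1, Nr1d2, Dbp and Tef. All 10 were among the 12339 genes tested, those whose scaled value averaged 1 or more over the libraries. The animals were Sprague-Dawley rats of 15 weeks of age, and each group had 3 RNA-seq libraries made from hand-picked pancreatic islets. Lean-LF offspring came from dams on a low-fat diet (LF, 10% fat) and were weaned onto the same diet for 12 weeks. Lean-HFS offspring had such dams too but were weaned onto a fat- and sucrose-rich diet (HFS). GDM-LF and GDM-HFS offspring came from dams that were fed HFS (45% fat) to induce GDM, and were weaned onto LF or HFS. Dams, 6 per diet, received their diet from 6 weeks before mating until the end of suckling, and all were mated with LF-fed males. The GDM of the dam and its HFS diet therefore cannot be told apart. The labels used here name neither litter, nor sex, nor the time of day at which islets were collected. The labels do not say that the libraries of a group came from separate animals, so the spread behind each p-value may be technical.

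The clock is a feedback loop of transcription that runs in nearly every cell, islet cells included. BMAL1, the product of Arntl, pairs with CLOCK and activates genes that carry an E-box, among them the Per, Cry and Nr1d genes and Dbp. PER and CRY proteins then block that activation. The nuclear receptors REV-ERB alpha (Nr1d1) and REV-ERB beta (Nr1d2) repress Arntl through RORE elements, and the transcription factors DBP and TEF carry the rhythm to output genes through D-boxes. In a rhythmic tissue the Arntl transcript therefore peaks at another time of day than Nr1d1, Dbp and the Per transcripts, and in the islet the clock is known for its part in insulin secretion.

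Promoter sequences show where these elements stand in the members' own genes. RefSeq windows of the 250 bases before an annotated start site (build GRCr8) were matched for 9 of the 10 genes, in 11 entries, with Arntl listed as Bmal1. The motifs searched on both strands were the E-box CACGTG, the E'-box CACGTT, the D-box TTATGTAA, the RORE core TAGGTCA and the CRE TGACGTCA. Among 33469 windows of that length, 5.59% held the E-box, 4.07% the E'-box, 0.828% the D-box, 2.26% the RORE core and 1.59% the CRE. At least 1 motif was found in 5 of the 11 entries, while the share of all windows with at least 1 of them was not computed. The 5 are shown with the motif in capitals, followed by Nr1d2 and Dbp, the genes with the largest differences in level, whose windows held none. Their positions are chr1:176766078-176766327 on the plus strand for Arntl, chr9:99496994-99497243 on the minus strand for Per2, and chr7:115206577-115206826 on the plus strand for Tef. The entries of Nr1d1 lie on the minus strand at chr10:84231813-84232062 (first) and chr10:84229455-84229704 (second). Nr1d2 is at chr15:9954784-9955033 and Dbp at chr1:105312006-105312255, both on the plus strand.
Arntl: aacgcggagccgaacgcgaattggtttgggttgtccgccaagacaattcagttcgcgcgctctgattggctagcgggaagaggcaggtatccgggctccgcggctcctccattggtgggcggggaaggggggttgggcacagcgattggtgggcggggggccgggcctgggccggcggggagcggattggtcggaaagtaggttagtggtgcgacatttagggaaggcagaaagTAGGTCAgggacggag
Per2: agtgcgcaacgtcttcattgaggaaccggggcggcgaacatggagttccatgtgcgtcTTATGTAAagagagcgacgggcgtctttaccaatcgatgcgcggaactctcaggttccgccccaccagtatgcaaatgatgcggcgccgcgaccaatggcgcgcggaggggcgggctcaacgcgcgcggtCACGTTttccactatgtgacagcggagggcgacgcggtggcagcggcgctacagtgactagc
Nr1d1, first entry: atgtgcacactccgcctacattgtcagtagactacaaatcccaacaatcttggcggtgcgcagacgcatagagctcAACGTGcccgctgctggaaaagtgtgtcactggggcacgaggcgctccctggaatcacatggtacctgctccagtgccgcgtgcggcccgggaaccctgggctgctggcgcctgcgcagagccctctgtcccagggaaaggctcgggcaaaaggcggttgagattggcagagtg
Nr1d1, second entry: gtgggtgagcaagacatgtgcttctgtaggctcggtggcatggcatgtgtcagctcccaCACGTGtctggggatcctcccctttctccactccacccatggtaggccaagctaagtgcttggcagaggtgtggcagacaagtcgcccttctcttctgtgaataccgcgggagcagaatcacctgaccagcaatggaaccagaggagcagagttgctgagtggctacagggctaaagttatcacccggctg
Tef: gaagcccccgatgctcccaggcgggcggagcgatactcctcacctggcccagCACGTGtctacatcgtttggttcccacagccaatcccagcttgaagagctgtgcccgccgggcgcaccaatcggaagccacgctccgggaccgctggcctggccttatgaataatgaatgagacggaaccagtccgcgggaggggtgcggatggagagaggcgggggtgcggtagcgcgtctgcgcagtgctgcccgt
Nr1d2: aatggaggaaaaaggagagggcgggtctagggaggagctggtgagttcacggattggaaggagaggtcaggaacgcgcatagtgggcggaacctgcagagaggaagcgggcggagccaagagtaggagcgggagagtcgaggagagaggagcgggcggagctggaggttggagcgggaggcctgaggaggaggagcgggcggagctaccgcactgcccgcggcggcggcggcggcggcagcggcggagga
Dbp: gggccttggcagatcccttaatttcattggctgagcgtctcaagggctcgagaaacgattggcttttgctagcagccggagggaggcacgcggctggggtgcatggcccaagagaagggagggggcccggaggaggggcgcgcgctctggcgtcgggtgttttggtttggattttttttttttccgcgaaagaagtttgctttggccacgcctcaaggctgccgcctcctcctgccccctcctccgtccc

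The RORE core of Arntl began 16 bases before the start site. Per2 held an E'-box that began 62 bases before its start and a D-box at 192 bases. Nr1d1 held an E'-box, read on the minus strand of the window, at 174 bases in the first entry and an E-box at 191 bases in the second, and Tef held an E-box at 198 bases. A longer form of the RORE was searched only after the Arntl sequence had been read. It occurred at 56 and 20 bases before the Arntl start and in 12 of the 33469 windows (0.0359%), and since it was picked on that promoter, its presence there is no result. A match is a match of letters and not a measured binding site, and a window without one says nothing about elements elsewhere in the gene.

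The libraries held between 11469290 and 27492858 reads over genes, and a clock gene had between 18 and 1103 reads in a library. All 10 beta cell markers were above 0 and their summed scaled value was 1.24e+06 to 2.26e+06 per library. Libraries differed in acinar RNA: the summed value of 18 acinar markers was 26742 to 74107 in Lean-LF, 39313 to 216944 in Lean-HFS, 37703 to 642605 in GDM-LF and 104988 to 208176 in GDM-HFS, with the highest value in GDM-LF 2. They also differed in the level of transcripts under 1000 bases against those over 4000 bases, a log2 difference that was −0.76 to −0.07 in Lean-LF, −0.31 to −0.11 in Lean-HFS, −0.07 to 0.58 in GDM-LF and 0.33 to 0.79 in GDM-HFS. Of all reads in the table, the 3 ribosomal RNA (rRNA) entries held 1.84% to 30.4% in Lean-LF, 24.7% to 39.0% in Lean-HFS, 6.999% to 8.55% in GDM-LF and 1.84% to 4.34% in GDM-HFS. The library titles carry a letter whose meaning is not stated: 3 libraries have a K (GDM-HFS 3, GDM-LF 1 and GDM-LF 2) and 9 have a G. In bulk islets, fewer cells of a type and less RNA per cell cannot be told apart.

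Levels of different clock genes were compared per kilobase of exon, as the mean scaled value over the 12 libraries ± SD. Arntl was highest (51.2 ± 8.57), then Nr1d2 (43.7 ± 13.3), Dbp (41.8 ± 20.5), Cry1 (33.2 ± 10.7), Per2 (29.3 ± 11.8), Tef (28.8 ± 5.89), Nr1d1 (26.7 ± 18.5), Per1 (25.3 ± 7.34), Clock (17.5 ± 4.52) and Per3 (5.03 ± 1.57). The SDs of neighbours in this order overlapped, except between Clock and Per3. The median was 29.0 over the clock genes and 35.2 over all genes tested. Over the 12 libraries, Nr1d1 varied most (SD 0.70 on the log2 scale) and Arntl least (0.23), and 8 of the 10 clock genes varied more than the median gene (0.39).

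**Figure D1:**
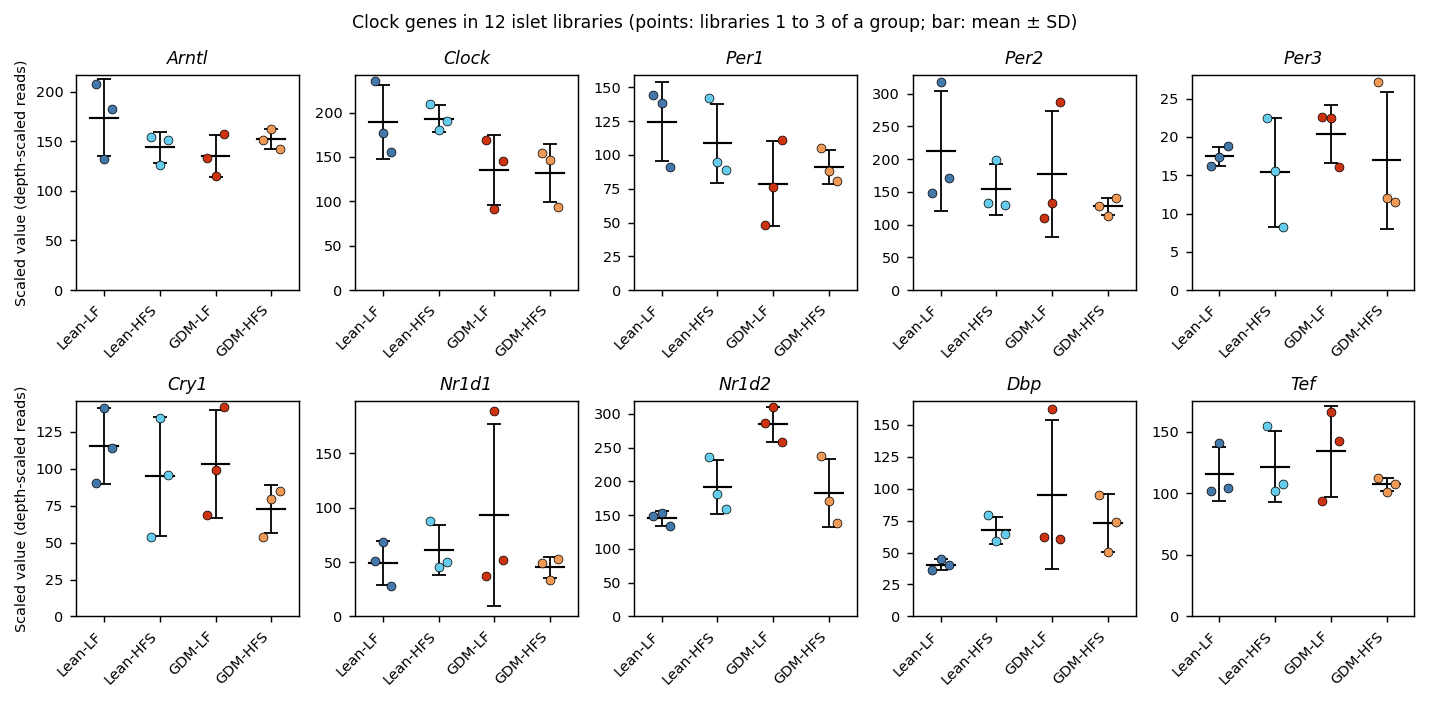
Scaled value (depth-scaled reads, linear axis from 0) of each clock gene in each islet library, by group. Points are libraries 1 to 3 of a group and bars are mean ± SD; the 3 GDM-LF libraries of Nr1d2 lie at 258.1 to 309.6, above all other libraries, and GDM-LF 2 is highest for Nr1d1, Dbp and Tef.

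Nr1d2 was the only clock gene to pass the test in the main analysis. It did so in 1 comparison, GDM against lean dams on LF weaning, where it was higher. Nr1d2 (NM_147210, rn5 chromosome 15, 12792759 to 12819053, plus strand) encodes the repressor REV-ERB beta. Its scaled values were 149.4, 153.5 and 133.3 in Lean-LF and 286.4, 309.6 and 258.1 in GDM-LF, with 235.7, 181.9 and 158.5 in Lean-HFS and 237.9, 170.9 and 139.0 in GDM-HFS. The 3 GDM-LF libraries were above the 9 others, while Lean-HFS and GDM-HFS overlapped. The group means were 145 ± 10.7 (SD, n = 3) in Lean-LF, 285 ± 25.8 in GDM-LF, 192 ± 39.6 in Lean-HFS and 183 ± 50.5 in GDM-HFS.

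On LF weaning the log2 difference of Nr1d2 between GDM and lean dams was 0.96 ± 0.205 (SE; 95% interval 0.52 to 1.41), a fold of 1.95, with a limma adjusted p of 0.0477. That made 1 of 10 clock genes past the threshold of 0.05, against 1.58% of all genes tested. An unadjusted p under 0.05 was found for 3 of the 10 (Nr1d2, Dbp and Per1), against 26.6% of all genes. The direction was kept in all 27 alternative analyses, but the call was lost in 19 of them. Over all 27, the log2 difference was 0.74 to 1.07 and the adjusted p 0.00165 to 0.610. Leaving out 1 library at a time ended the call for 10 of the 12 libraries, all but Lean-LF 3 and GDM-LF 3, with adjusted p up to 0.268 (without Lean-LF 1). In each of those 10 fits limma called 0 of all genes. Over the 12 fits the difference was 0.90 to 1.03. Without the K libraries, which leaves only GDM-LF 3 in its group, the difference was 0.83 (adjusted p 0.610), and with the acinar level as a covariate 0.99 (adjusted p 0.0893). With the rRNA level as a covariate it was 0.97 (adjusted p 0.0318).

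Markers of several cell types differed in level between the same groups, GDM-LF and Lean-LF, though 0 of the markers in the lists named here passed the test. Of the beta cell markers 8 of 10 were lower (median log2 difference −0.53, 5 at an unadjusted p under 0.05). Their summed scaled value was not lower as a whole: it was 1.31e+06 to 1.42e+06 in Lean-LF and 1.24e+06 to 1.74e+06 in GDM-LF. Of the delta and PP cell markers 5 of 5 tested were higher without overlap (median 0.81), of the duct markers 8 of 9 were higher (median 1.38, 6 at an unadjusted p under 0.05), and of the acinar markers 17 of 18 were higher (median 1.09, 5 at an unadjusted p under 0.05). The median of all genes tested was 0.05. Of all genes tested, 12.9% were higher without overlap in this comparison. An unadjusted limma p under 0.05 was found for 26.6% of all genes, and the acinar count is near that share. The mean log2 level of the acinar markers was 8.84, 10.21 and 9.57 in Lean-LF and 9.67, 13.27 and 9.47 in GDM-LF. Apart from GDM-LF 2, these libraries overlapped. The summed scaled value of the 6 delta and PP markers was 3211 to 4070 in Lean-LF and 8213 to 19697 in GDM-LF, and that of the duct markers 1175 to 1941 and 2221 to 7424. Apart from the fit with the acinar level as a covariate, the part of these cell types in the Nr1d2 and Dbp values was not tested.

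On HFS weaning the Nr1d2 difference between GDM and lean dams was −0.09 ± 0.205 (95% interval −0.53 to 0.35, limma adjusted p 0.881). The effects on the weaning diets differed by −1.05 ± 0.291 (unadjusted p 0.00299 in limma, with 5.92% of all genes under 0.05 and 0 called), but the adjusted p of this interaction was 0.784, which misses the threshold. Within offspring of GDM dams, HFS-weaned libraries were below LF-weaned ones without overlap (−0.67 ± 0.205, adjusted p 0.470), and within offspring of lean dams they were above without overlap (0.38 ± 0.205, adjusted p 1.00). Of all genes, 6.61% were lower and 3.68% higher without overlap in these respective comparisons, and limma called 0 genes in either. An unadjusted p under 0.05 was found for 1 clock gene (Nr1d2) in offspring of GDM dams, against 9.63% of all genes, and for 0 in offspring of lean dams, against 2.18%. The comparisons share groups and are not independent of each other.

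Nr1d1, which encodes REV-ERB alpha, did not pass the test in any comparison. Its scaled values were 51.4, 68.7 and 27.8 in Lean-LF, 37.6, 189.5 and 52.1 in GDM-LF, 87.8, 45.8 and 50.1 in Lean-HFS and 49.2, 33.97 and 52.5 in GDM-HFS. Apart from GDM-LF 2 at 189.5, the libraries of all groups overlapped. The LF-weaned difference was 0.63 ± 0.506 (95% interval −0.46 to 1.72, limma adjusted p 0.442), an interval that holds the 0.96 of Nr1d2. This difference was −0.06 without GDM-LF 2, the library with the highest acinar level. The interaction of dam and weaning diet for Nr1d1 was −1.02 ± 0.715 (limma adjusted p 0.806). Nr1d1 overlaps the thyroid hormone receptor gene Thra on the opposite strand by 1061 bases, and reads were counted without strand, so reads in that stretch cannot be told apart. Thra itself was at 47.8 to 99.0 and was highest in Lean-HFS 1.

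Among the activators, the LF-weaned GDM libraries were lower in mean for both Arntl and Clock, and neither passed the test. Arntl was at 207.1, 131.8 and 182.5 in Lean-LF, 132.9, 114.5 and 157.0 in GDM-LF, 154.1, 126.2 and 151.2 in Lean-HFS and 151.6, 162.8 and 141.9 in GDM-HFS. All 4 groups overlapped, and the GDM difference was −0.35 ± 0.193 on LF (limma adjusted p 0.259) and 0.08 ± 0.193 on HFS (0.878).

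Clock, the partner of BMAL1, was at 235.6, 177.4 and 155.0 in Lean-LF, 168.6, 91.2 and 145.4 in GDM-LF, 209.3, 179.9 and 190.3 in Lean-HFS and 154.1, 146.9 and 94.0 in GDM-HFS. On HFS the 3 GDM libraries were below the 3 lean ones (−0.58 ± 0.253, limma adjusted p 0.318), which also held for 12.1% of all genes in that direction. Averaged over weaning diets the difference was −0.54 ± 0.179 (adjusted p 0.0634). Clock has the longest exon sequence of the 10 genes (9272 bases), and its level followed the short against long transcript measure with Pearson r = −0.87 over 12 libraries (permutation adjusted p 0.0126 over 30 relations, Spearman rho −0.90). Within groups r was −0.87 (exact permutation p 0.00154), and without the 2 libraries farthest from the median −0.89. With the length trend removed from each library the averaged difference was −0.35. The length measure itself was higher in the GDM libraries (−0.07 to 0.79) than in the lean ones (−0.76 to −0.07). Beyond that fit, its part in the Clock difference was not tested. Clock and the acinar level had r = −0.73 (permutation adjusted p 0.0688; rho −0.49), with −0.71 within groups (exact permutation p 0.0309) and −0.30 without GDM-LF 2 and GDM-HFS 3. With the acinar covariate the averaged difference was −0.34, and with the rRNA covariate −0.46 (adjusted p 0.641), where limma called 0 of all genes in place of 11.6%.

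The repressors Per1, Per2, Per3 and Cry1 gave no call. Per1, which also responds to glucocorticoids, was at 144.6, 138.7 and 90.9 in Lean-LF, 48.2, 76.6 and 111.0 in GDM-LF, 142.0, 95.1 and 88.8 in Lean-HFS and 104.9, 87.9 and 80.8 in GDM-HFS. Its LF-weaned difference was −0.71 ± 0.295 (limma adjusted p 0.146), with overlapping groups, and −0.996 without GDM-LF 3 (adjusted p 0.0396).

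Per2, a core repressor, was at 148.8, 317.5 and 171.3 in Lean-LF, 109.5, 133.6 and 287.0 in GDM-LF, 133.1, 199.0 and 130.2 in Lean-HFS and 128.9, 114.0 and 140.7 in GDM-HFS. Cry1, its partner, was at 90.3, 141.3 and 114.3 in Lean-LF, 68.5, 99.1 and 141.6 in GDM-LF, 53.8, 134.5 and 96.1 in Lean-HFS and 53.9, 79.6 and 84.8 in GDM-HFS. For both genes the same library was highest in each of Lean-LF, GDM-LF, Lean-HFS and GDM-HFS. The LF-weaned GDM differences were −0.31 ± 0.343 for Per2 and −0.20 ± 0.339 for Cry1 (limma adjusted p 0.583 and 0.738). Per3, the least abundant clock gene here, ranged from 8.2 in Lean-HFS 3 to 27.2 in GDM-HFS 1, and its groups overlapped in every comparison.

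The output factors Dbp and Tef bind D-boxes. Dbp was at 36.5, 45.2 and 40.2 in Lean-LF, 62.5, 162.5 and 60.6 in GDM-LF, 79.3, 58.9 and 64.7 in Lean-HFS and 95.2, 50.5 and 73.8 in GDM-HFS. The 3 Lean-LF libraries were the lowest of the 12. Within offspring of lean dams, HFS-weaned libraries were therefore above LF-weaned ones without overlap (0.72 ± 0.344, unadjusted p 0.0575 in limma). Of the clock genes this held for 2, Nr1d2 and Dbp, and of all genes for 3.68%. Dbp had the largest LF-weaned GDM difference of the 10 genes, 1.05 ± 0.344, without overlap between groups, but its limma adjusted p was 0.0832. Without GDM-LF 2 the difference was 0.59 (adjusted p 0.268). Dbp has the shortest exon sequence of the 10 genes (1654 bases). Its level had Pearson r = 0.62 with the short against long transcript measure (permutation adjusted p 0.230, rho 0.51), and 0.38 within groups. The alternatives included a fit with the length trend removed, and in all 27 of them the LF-weaned difference of Dbp kept its sign. Over the 15 alternatives other than leaving out 1 library it was 0.57 to 1.23. Beyond that, whether this relation has a part in the difference was not tested. Groups did not overlap upward in this comparison for 12.9% of all genes and for 2 of the 10 clock genes, Nr1d2 and Dbp. Tef was at 93.7 to 166.4 in all libraries, and its LF-weaned difference was 0.19 ± 0.235 (adjusted p 0.635).

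**Figure D2:**
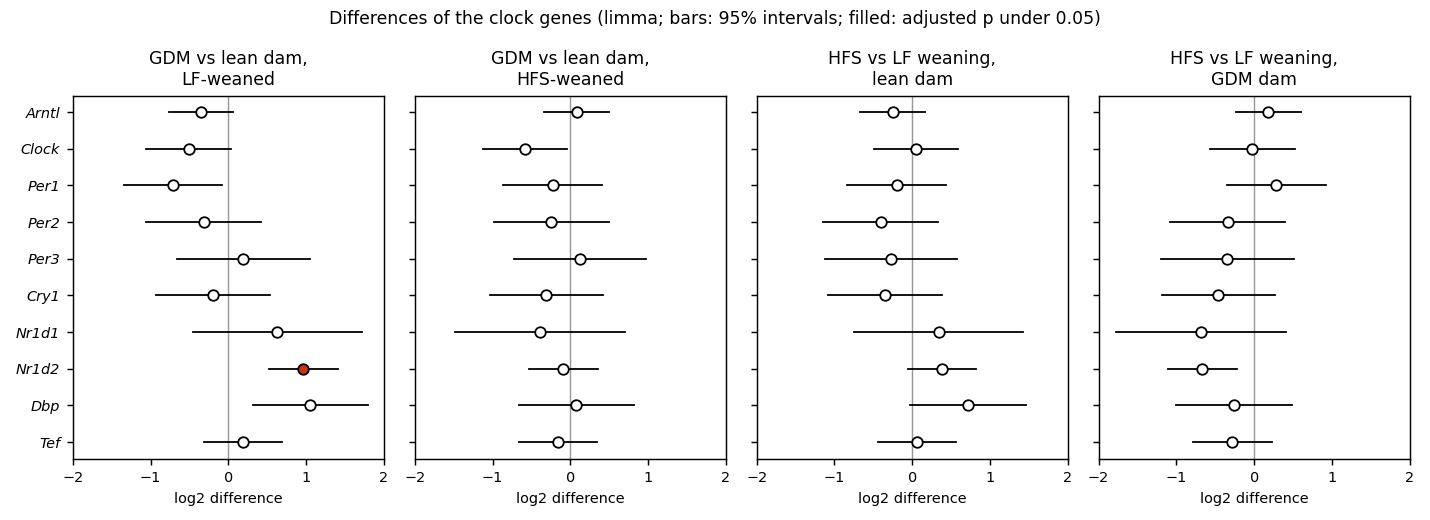
Log2 differences of the 10 clock genes in the 4 comparisons of single groups, from limma; points are estimates, bars 95% intervals and a filled point an adjusted p under 0.05. Nr1d2 on LF weaning is the filled point, at 0.96, and on HFS weaning its estimate is −0.09.

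In the other comparisons 0 of the 10 clock genes passed the test. For GDM against lean dams on HFS, limma called 0.0081% of all genes tested, and 1 clock gene (Clock) had an unadjusted p under 0.05, against 14.2% of all genes. Averaged over weaning diets, 11.6% of all genes were called but 0 of the clock genes, and 4 of them (Clock, Nr1d2, Dbp and Per1) had an unadjusted p under 0.05, against 30.9% of all genes. DESeq2 on the recovered reads called 2, Clock and Nr1d2, in that comparison, and edgeR 0. For the weaning diet averaged over dams, limma called 0 genes, 0 clock genes had an unadjusted p under 0.05, against 4.95% of all genes, and edgeR and DESeq2 called 0 clock genes, as they did for GDM on HFS, in both single weaning comparisons and in the interaction. The largest differences for weaning averaged over dams were −0.41 ± 0.239 for Cry1 and −0.37 ± 0.242 for Per2. The median difference of the clock genes for GDM on LF was −0.00, beside 0.05 for all genes tested, with 5 higher and 5 lower.

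Since the loop ties these genes to each other, their levels were compared across the 12 libraries on the log2 scale. None of the 9 relations with Arntl passed after adjustment, and 7 were below 0. The strongest was with Dbp (Pearson r = −0.66, permutation p 0.0197, adjusted p 0.177; rho −0.49). Without Lean-LF 1 and GDM-LF 2, the farthest from the median of Arntl, r was −0.20, but leaving them out also narrows the range of Arntl. Leaving out 1 library at a time gave r of −0.78 to −0.49. Within groups r was −0.48 (exact permutation p 0.127) and in the 9 G libraries −0.47.

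All 45 pairs were then computed, a choice made after the values were seen, and 1 passed by Pearson's r and 0 by Spearman's rho. Nr1d1 and Tef had r = 0.83 (permutation adjusted p 0.0103) and rho 0.79 (adjusted p 0.0772). Without Lean-LF 3 and GDM-LF 2, the farthest in Nr1d1, r stayed at 0.83, and within groups it was 0.81 (exact permutation p 0.0440). Per2 and Cry1 had r = 0.79 (permutation adjusted p 0.0511) and rho 0.83 (adjusted p 0.0553). Their r was 0.70 without Lean-LF 2 and GDM-LF 3, 0.72 within groups (exact permutation p 0.0239) and 0.80 in the G libraries. Nr1d1 and Dbp had r = 0.73 (permutation adjusted p 0.131), which was 0.16 without Lean-LF 3 and GDM-LF 2. Within groups it was 0.85 (exact permutation p 0.0177), and in the G libraries 0.40. Dbp and the acinar level had r = 0.76 (permutation adjusted p 0.0688; rho 0.69; 0.48 without GDM-LF 2 and GDM-HFS 3), whose part in these relations was not tested.

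**Figure D3:**
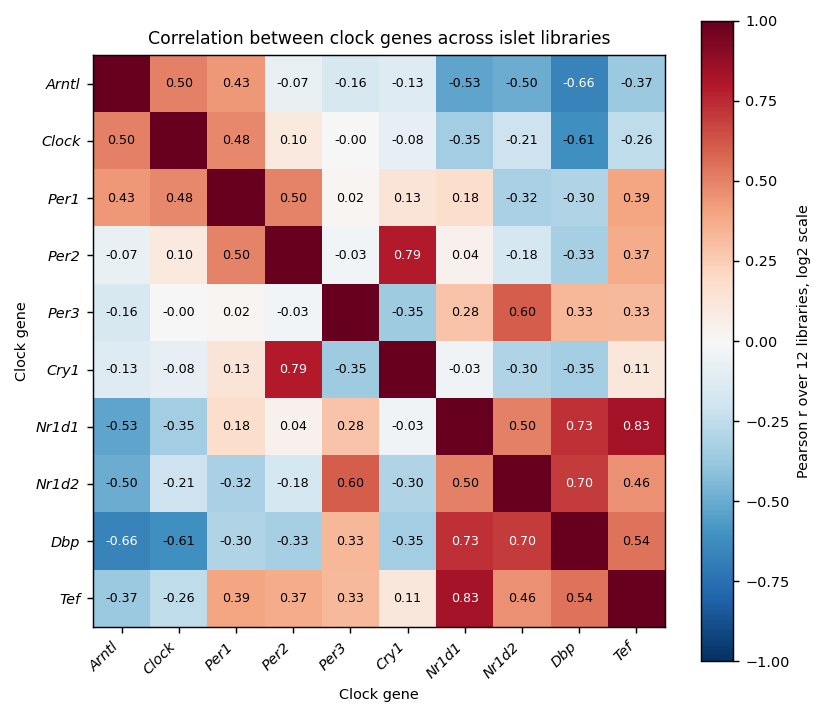
Pearson r between each pair of clock genes over the 12 islet libraries on the log2(scaled value + 1) scale, from −1 (blue) to 1 (red). The highest values off the diagonal are Nr1d1 with Tef (0.83) and Per2 with Cry1 (0.79), and the lowest is Arntl with Dbp (−0.66).

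**Figure D4:**
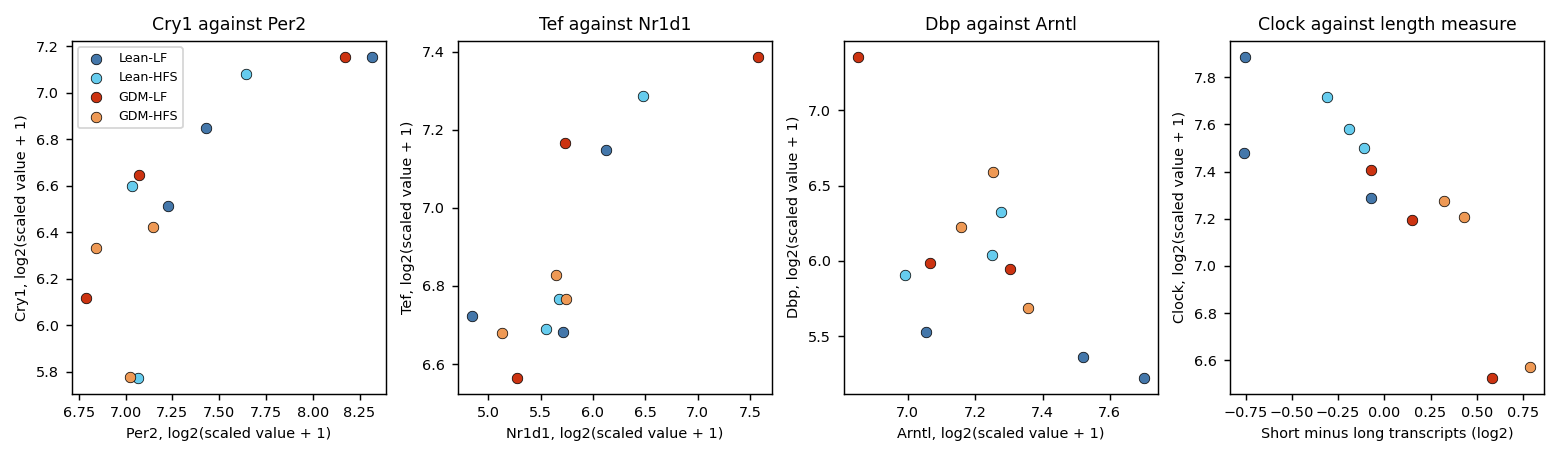
Each library as a point, coloured by group, for Cry1 against Per2, Tef against Nr1d1, Dbp against Arntl, and Clock against the log2 difference of short and long transcripts; gene axes are log2(scaled value + 1). In the Dbp and Arntl panel the ends are held by GDM-LF 2 and Lean-LF 1, and r falls in size from −0.66 to −0.20 without them.

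The genes most like Arntl and Dbp were ranked by Pearson r over the 12 libraries among the 9823 genes whose scaled value averaged 10 or more. Highest with Arntl were Itih3 (0.93), Ppcs (0.83), Kctd13 (0.82), Maea, Fbxo44, Slc35f5, Slc16a6 and Nsg2, and lowest were Pigr (−0.91), Enkur (−0.89), Smpd2, RT1-N1, Dusp1, Hacd1, Exosc3 and RT1-N2. Highest with Dbp were Tor2a (0.91), Lactb (0.91), Rnd1 (0.90), Gpx2, Trim34, Klf4, Sectm1b and Cd1d1, and lowest were Usp13 (−0.94), Hadhb (−0.93), March6, Cds2, Pros1, Ahi1, Cpq and Vldlr. No clock gene was among the 8 highest or 8 lowest of either. In the same ranking for Per2 and Nr1d2, made after the values were seen, Cry1 was the 7th highest with Per2 (0.79), and Dbp was the 68th highest with Nr1d2 (0.70).

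Of 20 other clock genes listed, 16 were tested. For GDM on LF 0 of them passed, with a median log2 difference of −0.21 beside 0.05 for all genes tested. Among the lowest p were those of Bhlhe40, a repressor of E-box genes (0.60 ± 0.230, limma adjusted p 0.123), and Cry2, the paralog of Cry1 (−0.71 ± 0.303, adjusted p 0.158). An unadjusted p under 0.05 was found for 3 of the 16 on LF, against 26.6% of all genes. On HFS 0 of the 16 passed, and 2 had an unadjusted p under 0.05, against 14.2% of all genes. Of 15 clock output genes 14 were tested, and 0 passed on LF, on HFS or averaged. On LF the lowest p were those of Rgs16 (−0.97 ± 0.399), Lonrf3 (1.31 ± 0.540) and Leo1 (−0.48 ± 0.206), each with a limma adjusted p of 0.144 to 0.155.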

How the data were processed

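Gene expression was measured by RNA-seq in 12 libraries of rat islets. The submitters' processing notes name STAR 2.5.1b, HOMER 4.9 and DESeq2. Per the file headers, exon reads were summed per gene on build rn5 over both strands. As deposited, each value is a depth-scaled signal: the header says FPKM, but the values are whole multiples of 1 step per library and are not divided by length. Dividing by the step gave whole reads for 100% of values up to 1000 reads (tolerance 0.1), with 1.96 to 5.02 reads per unit. The planned design had assumed FPKM, and the log-scale test was kept.

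Values were rescaled by median ratios (factors 0.83 to 1.27). On log2(scaled value + 1) of the 12339 genes averaging at least 1, limma 3.58.1 (R 4.3.3) was run with 4 group means, a mean-variance trend and Benjamini-Hochberg adjustment in each of 7 contrasts. These log2 differences understate changes of low genes. edgeR 4.0.16 and DESeq2 1.42.0 on recovered reads were alternatives. Correlations used 100000 permutations, or all 1296 rearrangements within groups. Scripts were tested on simulated data. Columns were assigned by name. All 10 clock genes are named, and of the other lists those past the threshold or of the 3 lowest p; a result that this rule takes is not reported here. The clock genes, lists and tests were chosen with earlier results of these data known.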

Additional observations from a re-analysis of the deposited data

How the results depend on the processing

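For GDM on LF, 1 clock gene was called, and 0 with a pseudocount of 5, no filter on low values, no rescaling, no mean-variance trend, the K libraries left out, the acinar covariate, the length trend removed or edgeR (adjusted p of Nr1d2 0.0503). It was 2 with library weights and with DESeq2, and 0 to 3 when 1 library was left out, with 3 (Nr1d2, Per1 and Dbp) without GDM-LF 3. All genes called there numbered 195, and 0 to 1768 under the alternatives. Averaged over weaning diets the count of 0 clock genes became 2 with library weights or DESeq2, 1 with the length trend removed, and 0 to 1 without 1 library: Clock without Lean-LF 3 or GDM-LF 1, and Per1 without GDM-LF 3. All genes called there numbered 1426, and 0 to 2568 under the alternatives. The count stayed at 0 in the other 5 contrasts under all 27 alternatives. Of the Arntl relations 0 passed, and 0 to 1 without 1 library (Dbp without Lean-LF 2). Of the 45 pairs 1 passed, and 0 on deviations from group means or without the K libraries. No result past its threshold changed sign. The causes were not tested, except that leaving out libraries also leaves fewer samples. With 18 to 121 reads per library, Per3 was measured with the fewest reads.

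With the replicate number as a block, 0 clock genes were called for GDM on LF (Nr1d2 adjusted p 0.0619) and 1 averaged over diets (Nr1d2, adjusted p 0.0476). No pairing of samples by these numbers was seen, which does not exclude one. Deviations from group means correlated at −0.499 to 0.201 (median −0.036) over 18 same-numbered pairs, 5 of them over 0.1. Over 36 others they correlated at −0.302 to 0.448 (median 0.035).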

Other observations

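Glucocorticoid target genes, a list of 12 with 11 tested, include Per1. Averaged over weaning diets, Cebpd, a transcription factor induced by glucocorticoids, rose (log2 difference 1.06 ± 0.193) and Fkbp5, a co-chaperone of the glucocorticoid receptor, fell (−0.50 ± 0.151, limma adjusted p 0.0122 and 0.0489), so 1 rose and 1 fell of the 11, where limma called 11.6% of all genes. Of 22 immediate early genes, which respond fast to stimuli and to tissue handling, 1 rose on LF, Ier3 (1.60 ± 0.325, limma adjusted p 0.0477), where 1.58% of all genes were called. Averaged over weaning diets 2 rose, Ier3 (0.99 ± 0.230, adjusted p 0.0206) and Junb (0.88 ± 0.210, adjusted p 0.0226). There limma called 11.6% of all genes, so the called share of this list was no larger than that of all genes. The median of this list on LF was 1.01, beside 0.05 for all genes tested, and its summed scaled value was 6882 to 22671 in GDM-LF and 5169 to 6262 in Lean-LF. Its part in the Nr1d2 and Dbp values was not tested.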
